A study of Homo sapiens with 15 samples.

Results

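The extracellular matrix glycoprotein genes followed here were FN1, TGFBI, SPP1, SPARC, TNC, POSTN, THBS1, THBS2, FBN1 and ELN, 10 of the 19684 genes in the tables, matched by symbol through their Ensembl identifiers. The set was selected on the level of FN1 and TGFBI in the passaged cells, so the levels there and the differences from the organoids are given as a description, with no test. The other 8 genes stand beside them as matrix glycoproteins of related kinds, and all 10 are reported whatever their values.

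Poly(A) RNA-seq was done on 15 libraries, 3 in each of 5 groups, all from BC1-GFP, a single human induced pluripotent stem cell (hiPSC) line that carries green fluorescent protein and no further genetic change named in the labels. The groups were undifferentiated hiPSCs grown on Matrigel in mTeSR1, neural retina layers cut from retinal organoids in suspension at day 70 (D70-ROs) or day 150 (D150-ROs), and cells grown out of the neural retina of D150-ROs and collected on day 5 of passage 1 or passage 5 (P1 and P5 iMGCs, induced Müller glial cells). The outgrown cells were kept on Matrigel in DMEM with fetal bovine serum, a source of matrix and growth factors. The organoid medium also contained serum, and none was described for the hiPSC medium. No step that sorts Müller glia was described, so the iMGC libraries hold whatever cells attached and expanded.

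Matrix glycoproteins are secreted, bind integrins and other receptors, and either build fibrils or tune how cells hold on to them. Müller glia, the radial glia of the retina, lie against the inner limiting membrane and are known to make matrix. Fibronectin and tenascin are textbook features of glial scars, and several of these genes are also strongly used by fibroblasts and by many cells once they grow on plastic with serum.

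The genes fall into 4 roles. FN1 encodes fibronectin, the main adhesive fibril of provisional matrix, and lies on the minus strand of chromosome 2 (215360440 to 215436172, GRCh38, GENCODE 29, as for the other positions). TGFBI encodes an adhesive protein with fasciclin domains induced by TGF-beta and known for corneal dystrophies, on chromosome 5 (136028895 to 136063818), and POSTN, periostin, is its close relative on chromosome 13 (37562583 to 37598844). The matricellular genes, which mainly modulate adhesion, are SPP1 (osteopontin, chromosome 4, 87975650 to 87983426), SPARC (a collagen-binding protein, chromosome 5, 151661096 to 151687165), TNC (tenascin C, chromosome 9, 115019578 to 115118257), THBS1 (thrombospondin 1, chromosome 15, 39581079 to 39599466) and THBS2 (thrombospondin 2, chromosome 6, 169215780 to 169254044). FBN1 (fibrillin 1, chromosome 15, 48408306 to 48645849) forms microfibrils, and ELN (elastin, chromosome 7, 74027789 to 74069907) forms the core of elastic fibres.

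Promoter sequence from RefSeq (GRCh38.p14) was at hand for 9 of the 10 genes, all but ELN. The stretches of 4 genes are shown, those of the pair with the highest iMGC levels and of the 2 genes that rose between passages. Each ends before the first transcribed base that either RefSeq or GENCODE gives for its gene, and each is written 5′ to 3′ on the gene's strand: FN1 at chr2:215436173-215436318 (minus strand, 146 bases), TGFBI at chr5:136028745-136028894 (plus strand, 150 bases), THBS1 at chr15:39580929-39581078 (plus strand, 150 bases) and POSTN at chr13:37598845-37598994 (minus strand, 150 bases). The FN1 stretch lies over an exon of another annotated gene, AC012462.3. Capitals mark letters of the 5 motifs searched on both strands: CCAAT, the TATA box TATAAA, the cyclic AMP response element TGACGTCA, the AP-1 element TGANTCA and the TEAD element GGAATG, which were chosen with these sequences in view.
FN1: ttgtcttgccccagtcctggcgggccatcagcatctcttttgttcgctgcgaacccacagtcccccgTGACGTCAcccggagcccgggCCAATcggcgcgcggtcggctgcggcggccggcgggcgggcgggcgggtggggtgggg
TGFBI: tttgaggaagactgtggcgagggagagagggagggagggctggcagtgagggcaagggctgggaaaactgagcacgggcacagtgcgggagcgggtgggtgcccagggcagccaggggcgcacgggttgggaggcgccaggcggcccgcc
THBS1: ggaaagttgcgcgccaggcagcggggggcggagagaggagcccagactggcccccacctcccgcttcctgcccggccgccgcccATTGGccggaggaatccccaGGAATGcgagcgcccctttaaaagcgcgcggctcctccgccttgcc
POSTN: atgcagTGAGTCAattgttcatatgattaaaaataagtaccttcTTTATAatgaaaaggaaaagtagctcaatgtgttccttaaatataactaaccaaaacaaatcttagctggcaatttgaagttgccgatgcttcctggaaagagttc

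In the FN1 stretch the capitals are TGACGTCA at base 68 and CCAAT at base 89. THBS1 holds CCAAT on the other strand at base 85 and GGAATG at base 105, and POSTN holds TGANTCA at base 7 and TATAAA on the other strand at base 45. None of these letters is in the TGFBI stretch. Over whole windows of 250 bases before to 50 after the RefSeq start, CCAAT was in 2 of the 9 genes and in 34.6% of 35116 promoters, TATAAA in 2 and in 11.5%, TGACGTCA in 1 and in 1.85%, TGANTCA in 1 and in 7.71%, and GGAATG in 4 (SPARC, THBS1, THBS2 and FBN1) and in 14.0%. A match is a run of letters and was not tested as a binding site.

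Library totals lay between 11349600 and 20398755 expected counts, with a median of 17194154 and the lowest in D70-RO replicate 2. The labels and methods give 3 independent experiments per group, while the design text of the series gives 2 for hiPSCs and ROs, so p-values measure the spread between these libraries, which may in part be technical. A batch correction and a further company are also named there without saying which libraries they concern, and batch cannot be told apart from group. Labelled cell types were checked first. Müller glial markers were in place in D150-ROs, with RLBP1 at 33.5 ± 3.66 FPKM (a level scaled for transcript length and depth, given as mean ± SD with n = 3 in all groups) and SLC1A3 at 28.0 ± 0.618 FPKM. In the iMGCs RLBP1, which encodes CRALBP, was listed at 0 in all P1 libraries and averaged 0.03 FPKM in P5. The study too found CRALBP protein absent from passage 1 on, while SOX9 and GS (encoded by GLUL) still stained. SLC1A3 averaged 0.373 and 1.19 FPKM in P1 and P5 iMGCs, and GLUL 13.4 and 14.6 FPKM against 100.2 in D150-ROs. SOX9 was at 5.21 and 3.59 FPKM against 42.6, and NES at 39.6 and 9.52 FPKM against 181. The other markers of the list of 7 were higher in iMGCs, VIM at 2160 and 2858 FPKM against 1065 and APOE at 37.2 and 34.5 FPKM against 13.6. The name iMGC is used here as the study's label.

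FN1 was among the most abundant messages of the iMGCs. In hiPSCs the 3 libraries had 29.4, 37.4 and 33.4 FPKM of FN1, D70-ROs 4.66, 3.13 and 3.65, and D150-ROs 7.18, 10.3 and 9.35. In P1 iMGCs it was 8173, 8548 and 8298 FPKM, and in P5 iMGCs 8805, 9162 and 9216. No 2 groups overlapped. FN1 ranked 4 of 19684 genes by mean FPKM in P1 iMGCs and 2 in P5 iMGCs, against 8018 in D150-ROs. By mean FPKM it was 931-fold higher in P1 iMGCs than in D150-ROs and 250-fold higher than in hiPSCs.

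TGFBI had the same ladder at a lower level. The hiPSC libraries had 4.96, 7.71 and 7.20 FPKM, the D70-RO libraries 2.17, 1.07 and 2.09, and the D150-RO libraries 5.15, 6.38 and 6.86, so that hiPSCs and D150-ROs overlapped. In P1 iMGCs it was 2762, 2919 and 2787 FPKM and in P5 iMGCs 3969, 3887 and 3879, all far above every hiPSC and RO library. By mean FPKM TGFBI was at rank 14 in P1 and rank 11 in P5 iMGCs. POSTN, its relative, stayed low by comparison, at 0.813 ± 0.607 FPKM in hiPSCs, 0.0433 ± 0.0586 in D70-ROs, 0.143 ± 0.0737 in D150-ROs, 9.32 ± 1.24 in P1 iMGCs and 48.2 ± 2.50 in P5 iMGCs.

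**Figure D1:**
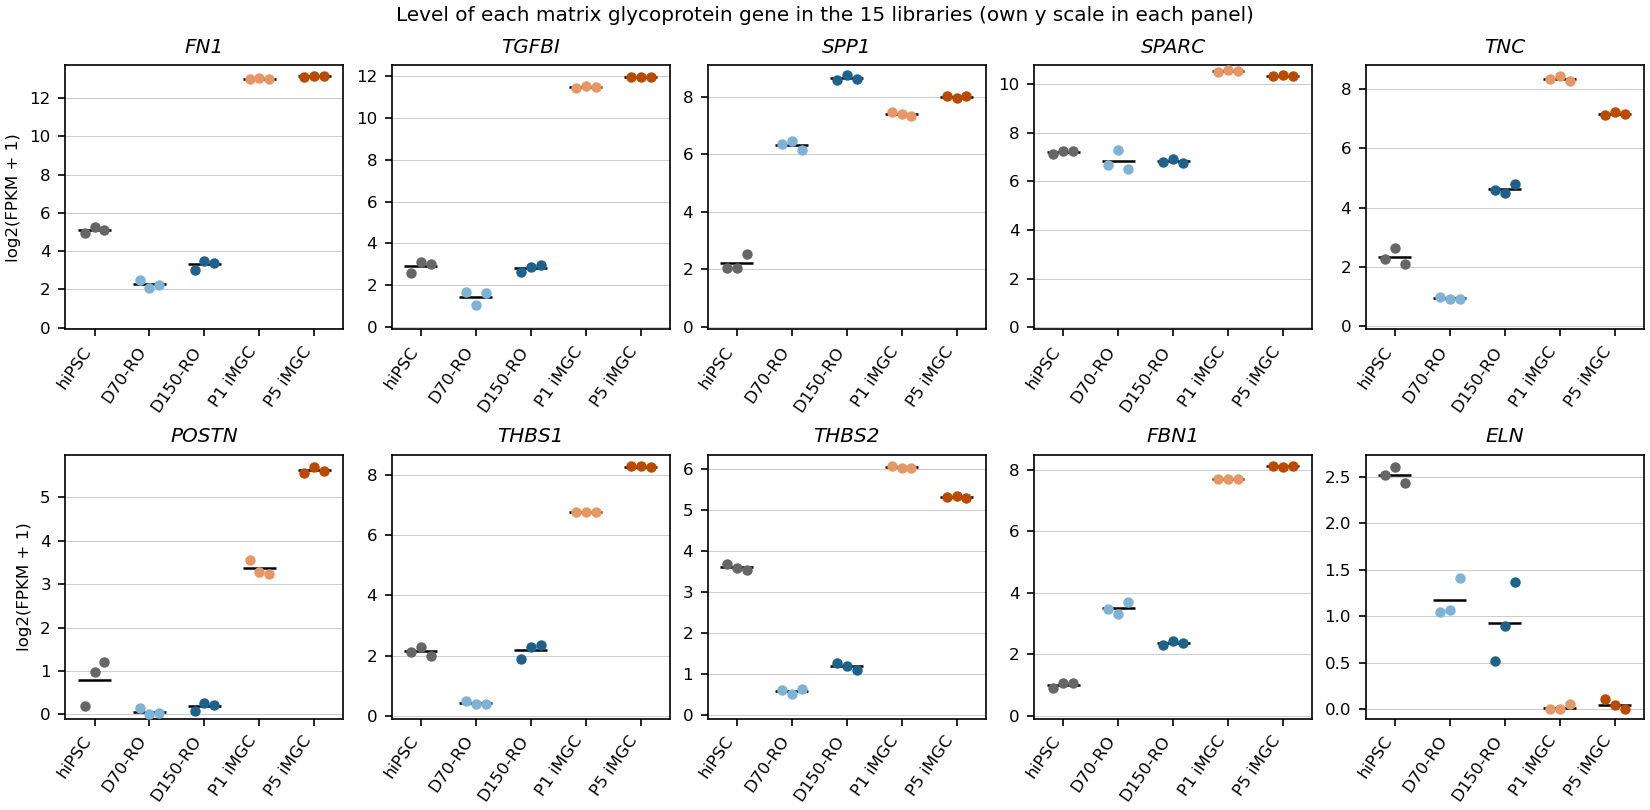
Level of each of the 10 genes as log2(FPKM + 1) on the y axis, with 1 point per library, 3 libraries in each of the 5 groups on the x axis and a bar at the mean of the log values. FN1 and TGFBI stand far above every hiPSC and RO library in the iMGCs, SPP1 is highest in D150-ROs, and ELN falls to near 0 in the iMGCs.

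Among the matricellular genes, SPARC was the one with a substantial level in every group: 147 ± 6.57 FPKM in hiPSCs, 116 ± 34.9 in D70-ROs, 114 ± 6.44 in D150-ROs, 1503 ± 33.8 in P1 iMGCs and 1320 ± 35.7 in P5 iMGCs. D70-RO replicate 2, with 155.9 FPKM against 100.6 and 91.4 in the other D70-RO libraries, made the D70-RO group overlap both hiPSCs and D150-ROs. TNC ran from 0.930 ± 0.0529 FPKM in D70-ROs through 4.14 ± 0.985 in hiPSCs and 23.8 ± 2.54 in D150-ROs to 142 ± 4.76 in P5 and 325 ± 16.1 in P1 iMGCs, with no overlap between neighbours in that order. THBS1 and THBS2 were both lowest in D70-ROs, at 0.337 ± 0.0551 and 0.497 ± 0.0681 FPKM. THBS1 reached 109 ± 0.133 FPKM in P1 and 311 ± 2.82 in P5 iMGCs, and THBS2 64.5 ± 1.39 in P1 and 38.6 ± 0.649 in P5.

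SPP1 did not peak in the iMGCs on the FPKM scale. The hiPSC libraries had 3.09, 3.14 and 4.82 FPKM, those of D70-ROs 81.0, 86.8 and 70.0, and those of D150-ROs 387, 436 and 398. It was 176, 167 and 160 FPKM in P1 iMGCs and 264, 249 and 261 in P5 iMGCs. Every D150-RO library was thus above every iMGC library on the FPKM scale. In TMM-scaled counts the picture of P5 differed, as given with the fold changes. SPP1 ranked 82 of all genes in D150-ROs and was the member with the largest share of their counts. The order of the 5 groups was the same in TMM-scaled counts as in FPKM for 8 of the 10 genes, all but SPP1 and THBS1.

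The elastic fibre genes FBN1 and ELN lay at opposite ends in the iMGCs, where FBN1 was highest and ELN lowest. FBN1 was 1.02 ± 0.131 FPKM in hiPSCs, 10.3 ± 1.54 in D70-ROs, 4.15 ± 0.216 in D150-ROs, 207 ± 0.282 in P1 iMGCs and 274 ± 5.38 in P5 iMGCs, with no overlap between groups. ELN was highest in hiPSCs, at 4.73, 5.10 and 4.41 FPKM. The D70-RO libraries (1.06, 1.10 and 1.67) overlapped those of D150-ROs (0.43, 0.86 and 1.59), and the iMGC libraries had 2 ELN counts in P1 and 5 in P5 over the 3 libraries of each group. At these counts the passages could not be told apart, with a log2 ratio of 1.33 and a 95% counting interval from -1.29 to 4.72 that covers counting error only.

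Together the 10 genes took 0.0810% ± 0.00449 of the expected counts in hiPSC libraries, 0.0603% ± 0.00844 in D70-ROs, 0.124% ± 0.00602 in D150-ROs, 7.50% ± 0.164 in P1 iMGCs and 8.34% ± 0.158 in P5 iMGCs. FN1 alone made up 5.72% of P1 and 6.17% of P5 counts, and TGFBI 0.784% and 1.08%. In the other groups FN1 did not lead: SPARC had the largest part in hiPSCs (0.0405%) and D70-ROs (0.0326%), and SPP1 in D150-ROs (0.0596%).

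**Figure D2:**
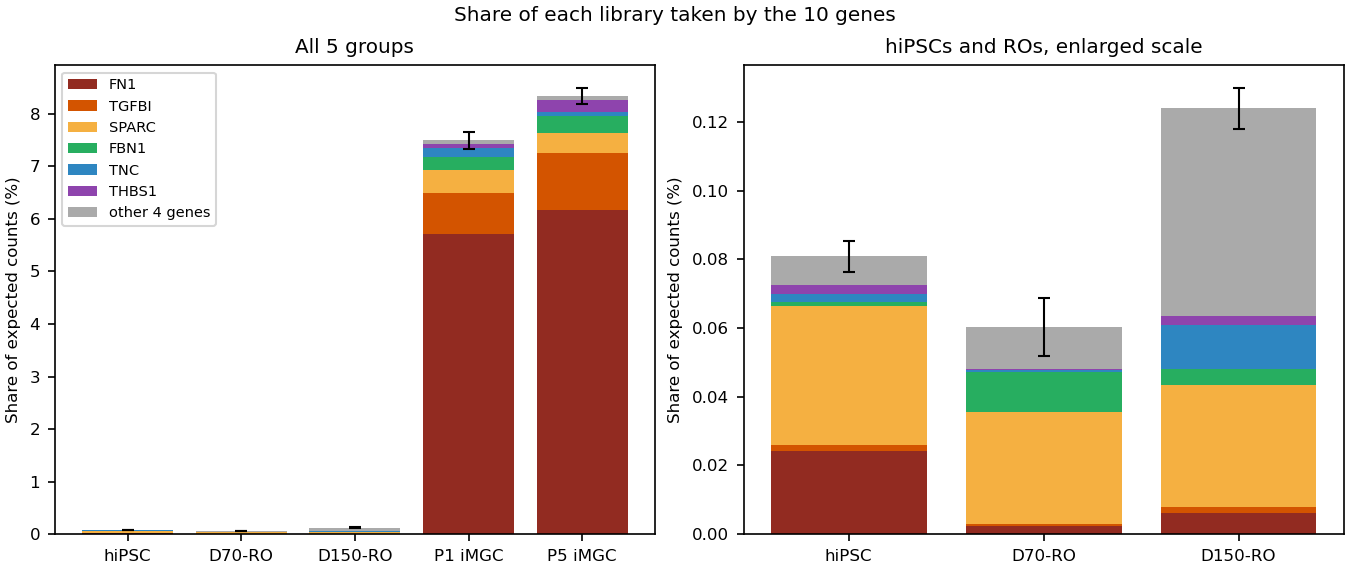
Mean share of a library's expected counts (y axis, %) taken by the 10 genes in each group of 3 libraries, stacked by gene, with the SD of the total as an error bar. FN1 fills most of the 7.50% and 8.34% in P1 and P5 iMGCs, and the enlarged panel shows SPARC leading in hiPSCs and D70-ROs.

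Most of the tested members were lower in D70-ROs than in hiPSCs. By edgeR (quasi-likelihood test, Benjamini-Hochberg adjusted over all genes), a gene was called at an adjusted p under 0.05 and at least a 2-fold change. Of 9 members tested, 6 were called lower, where 21.1% of 12954 genes were, and 2 higher, where 22.5% were. THBS1, THBS2 and TNC passed the filter on low levels through the hiPSC libraries alone, so only a fall could be called for them. FBN1, at 0.87 FPKM in hiPSC replicate 1, needed the D70-RO libraries to pass. Without that filter 7 members were called lower and 2 higher. Over all genes, 3604 were then called lower and 3686 higher. THBS2 had the largest fall, with a log2 fold change of -4.60 ± 0.16 (SE, adjusted p = 1.46e-09), from 11.1 to 0.497 FPKM. FN1 fell by 3.49 ± 0.16 on the log2 scale (adjusted p = 9.13e-09), and so did THBS1 (-3.37), TNC (-2.39), ELN (-2.14) and TGFBI (-1.99). The 2 that rose were SPP1, with 4.31 ± 0.20 (adjusted p = 1.01e-08), and FBN1, with 3.20 ± 0.15 (adjusted p = 1.34e-08). SPARC had a log2 fold change of -0.45 ± 0.19 and did not pass (adjusted p = 0.0542). POSTN was under the filter, at 8 counts in D70-ROs against 153 in hiPSCs. The median log2 fold change of the tested members, genes that passed through a single group included, was -2.14, beside 0.02 for all genes.

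From D70-ROs to D150-ROs, 5 of the 9 tested members rose, where 16.6% of 12855 genes did, and 2 fell, where 16.7% did. TNC, THBS1 and THBS2 passed the filter through the D150-RO libraries alone, so only a rise could be called for them. ELN needed the D70-RO libraries to pass. Without the filter the counts were again 5 and 2. Over all genes, 2643 were then called higher and 2647 lower. TNC rose most, by a log2 fold change of 4.40 ± 0.13 (adjusted p = 6.19e-08), from 0.99, 0.91 and 0.89 FPKM to 23.4, 21.6 and 26.6. THBS1 rose by 3.14 ± 0.20 (adjusted p = 2.29e-06), SPP1 by 2.13 ± 0.11 (adjusted p = 7.54e-07), TGFBI by 1.45 ± 0.23 (adjusted p = 0.000400) and FN1 by 1.16 ± 0.17 (adjusted p = 0.000253). FBN1 fell by 1.59 ± 0.11 on the log2 scale (adjusted p = 4.18e-06) and ELN by 1.11 ± 0.34 (adjusted p = 0.0162). THBS2 had 0.96 ± 0.23, short of 2-fold (adjusted p = 0.00406), and SPARC -0.10 ± 0.19 (adjusted p = 0.668). POSTN, with 22 counts against 8, was not tested. Fold changes here moved with transcript length, with a median of -0.67 in the shortest and 0.55 in the longest of 4 equal groups of all genes. With that trend removed FN1 stood at 0.50 and was not called, and ELN was not called with limma, in a test against 2-fold or without D150-RO replicate 1 (-0.80). The median of the tested members, genes that passed through a single group included, was 1.16, beside -0.01 for all genes. On the FPKM scale the median of all genes was 0.20 higher, with 63.3% of calls upward there and 49.8% with TMM.

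Over the whole course from hiPSCs to D150-ROs, 3 of 9 tested members were called higher (29.8% of 13344 genes were) and 3 lower (29.0%). This comparison shares its libraries with the 2 before it and is no independent evidence. FBN1 needed the D150-RO libraries and ELN the hiPSC libraries to pass the filter. Without the filter 3 members were called higher and 4 lower. Over all genes, 4847 were then called higher and 4727 lower. SPP1 rose by 6.44 ± 0.16 on the log2 scale (adjusted p = 8.38e-12), TNC by 2.02 ± 0.13 (adjusted p = 1.77e-08) and FBN1 by 1.62 ± 0.12 (adjusted p = 6.58e-08). THBS2 (-3.64), ELN (-3.25) and FN1 (-2.33) fell (adjusted p = 2.53e-10, 1.57e-07 and 8.22e-09). TGFBI (-0.53, adjusted p = 0.00887) and SPARC (-0.54, adjusted p = 2.43e-05) stayed under 2-fold, and THBS1 (-0.22) had an adjusted p of 0.189. The length trend was larger here, -0.83 in the shortest and 0.86 in the longest group of genes. With it removed FBN1 was at -0.03 and no longer called, and THBS1 at -1.36 was called lower. A list of mesenchymal and fibroblast markers gave a sum of 319 to 379 FPKM in hiPSCs, mostly THY1 (275 ± 29.7). The D70-RO libraries had 20.5 to 35.9 FPKM of it and those of D150-ROs 30.6 to 37.7, and its part in these differences was not tested. In bulk RNA, fewer cells of a type and less RNA per cell cannot be told apart.

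**Figure D3:**
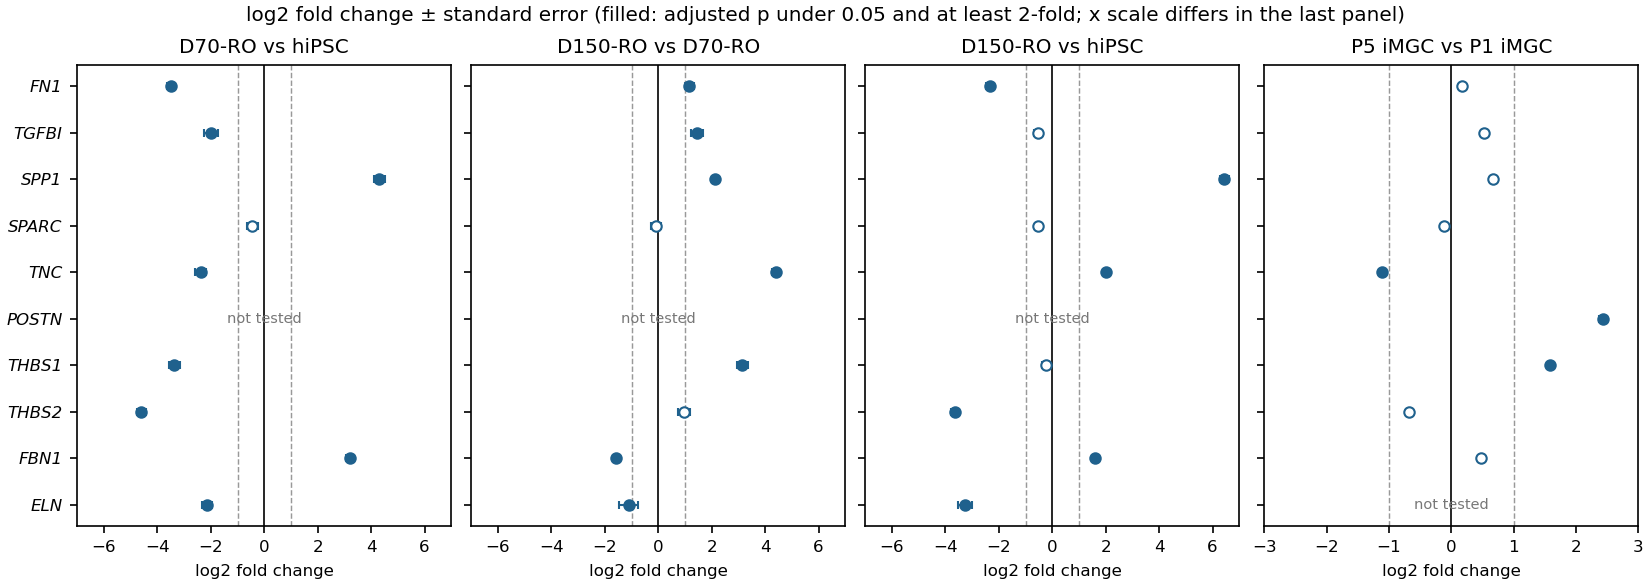
log2 fold change on the x axis, with its standard error, of each of the 10 genes (y axis) in the 4 tested comparisons of 3 libraries against 3. Filled points passed an adjusted p under 0.05 and a 2-fold change, dashed lines mark 2-fold, and POSTN or ELN is marked where it was under the filter. SPP1 lies on the right in every comparison with hiPSCs, and 6 of 9 genes lie on the left and filled from hiPSCs to D70-ROs.

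Serial passage separated the members. From P1 to P5, 2 of 9 tested members rose, where 1.94% of 11366 genes did, and 1 fell, where 0.977% did. POSTN rose from 10.7, 8.77 and 8.46 FPKM to 46.0, 50.9 and 47.6, a log2 fold change of 2.44 ± 0.07 (adjusted p = 7.67e-19), rank 21 among the rises of all genes. THBS1 rose from 108.5, 108.4 and 108.7 FPKM to 312.7, 312.4 and 307.7 (log2 fold change 1.58 ± 0.03, adjusted p = 1.02e-20). TNC fell from 323, 341 and 309 FPKM to 138, 147 and 141, by 1.11 ± 0.04 on the log2 scale (adjusted p = 1.08e-16), and it did not pass a test against 2-fold itself. For these 3 genes every P5 library lay on one side of every P1 library, a separation that was not counted over all genes.

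The other 6 tested members changed between passages by less than 2-fold, each with an adjusted p under 0.05. SPP1 was at 0.68 ± 0.04 on the log2 scale, TGFBI at 0.53 ± 0.03, FBN1 at 0.47 ± 0.03 and FN1 at 0.17 ± 0.04 (adjusted p = 0.000743). SPARC was at -0.11 ± 0.03 (adjusted p = 0.0133) and THBS2 at -0.67 ± 0.04. The thrombospondins thus went opposite ways, THBS1 up and THBS2 down in all 3 libraries of P5 against all 3 of P1, and so did POSTN and TNC. The median of the tested members was 0.47, beside 0.00 for all genes. The spread between iMGC libraries was small, so differences far below 2-fold passed the test.

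**Figure D4:**
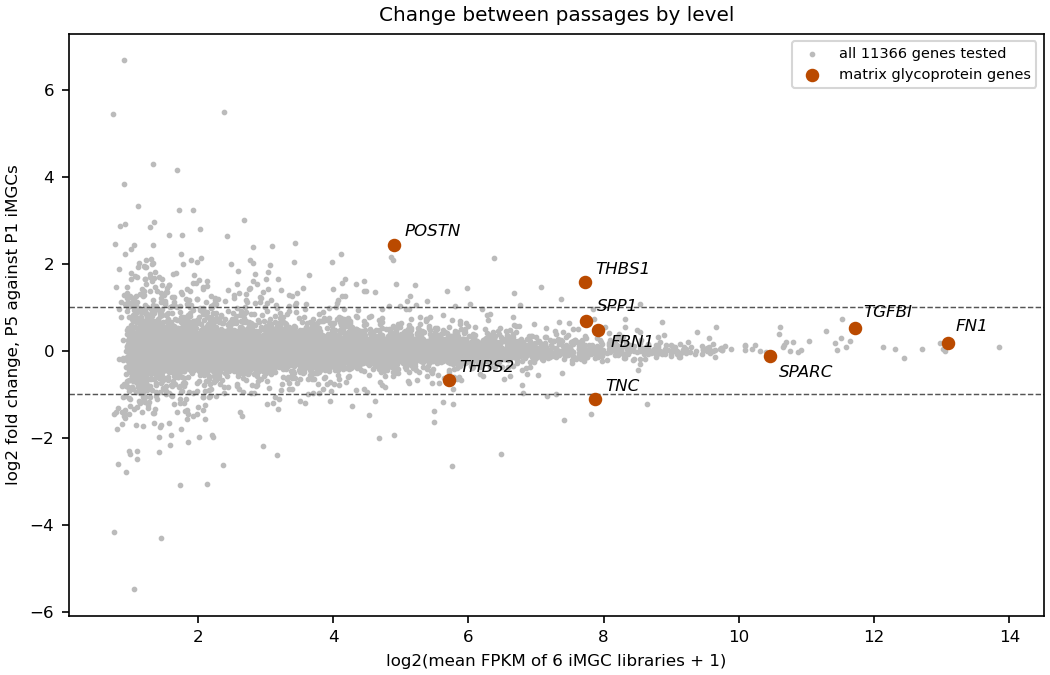
log2 fold change of P5 against P1 iMGCs (y axis) against the mean level as log2(FPKM + 1) over the 6 iMGC libraries (x axis), for all 11366 genes tested in grey and the 9 tested members in orange; dashed lines mark 2-fold. POSTN and THBS1 lie above the upper line and TNC just below the lower one, and FN1 and SPARC lie near 0 at the high end of the level.

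Between D150-ROs and the iMGCs, the contrast behind the choice of the set, the fold changes are descriptive. FN1 was higher by a log2 fold change of 10.49 in P1 and 10.66 in P5, at rank 11 of 12896 and of 12933 genes, and TGFBI by 9.56 and 10.07, at ranks 24 and 19. THBS2 was higher by 6.45 and 5.77, FBN1 by 6.36 and 6.82, THBS1 by 5.55 and 7.13, TNC by 4.47 and 3.35 and SPARC by 4.23 and 4.11. POSTN, with 22 counts over the D150-RO libraries, passed the filter through the iMGC libraries alone, with fitted values of 6.64 and 9.06. Its summed counts over library totals gave a log2 ratio of 6.02 in P1, with a counting interval from 5.41 to 6.70, and of 8.39 in P5, from 7.79 to 9.07. These values were smaller on the log2(FPKM + 1) scale. There FN1 was at 9.72 and 9.84, TGFBI at 8.64 and 9.11, THBS1 at 4.60 and 6.11, FBN1 at 5.34 and 5.74, THBS2 at 4.85 and 4.12, TNC at 3.72 and 2.53, SPARC at 3.71 and 3.53 and POSTN at 3.17 and 5.43. SPP1 stood at -0.62 in P1 and 0.05 in P5 in TMM-scaled counts. On the log2(FPKM + 1) scale it was at -1.27 and -0.65. The median of all genes lay 0.55 (P1) and 0.60 (P5) lower on that scale, and the share of calls that were upward was 22.9% and 22.4% there against 45.4% and 46.5% with TMM. ELN, untested, had 2 counts in P1 iMGCs against 90 in D150-ROs, a log2 ratio of -5.55 with a counting interval from -8.61 to -3.65.

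Lists of markers of other cell types also differed between the iMGCs and D150-ROs, in both directions. The 10 mesenchymal and fibroblast markers summed to 2298 to 2400 FPKM in P1 and 2585 to 2843 in P5 iMGCs against 30.6 to 37.7 in D150-ROs, with 8 of 10 at a mean of 1 FPKM or more in each passage. COL1A1 averaged 2000 and 2217 FPKM, COL1A2 159.9 and 298, PDGFRB 62.7 and 61.0 and LUM 42.8 and 60.4, while PRRX1 (0.0133 and 1.75) and PDGFRA (0.107 and 0.680) were low. PDGFRA was below its 6.30 FPKM in D150-ROs. The 6 pericyte and smooth muscle markers summed to 346 to 368 and 394 to 415 FPKM against 12.2 to 12.5 in D150-ROs, with ACTA2 at 256 and 286 and MYH11 near 0. Photoreceptor markers went from 747 to 786 FPKM in D150-ROs to 0.11 to 0.56 over all iMGC libraries. Of the 6 retinal progenitor markers, 3 averaged 1 FPKM or more in each passage, led by PAX6 at 30.7 and 43.9 against 159 in D150-ROs. Of the 6 pigment epithelium markers only MITF did, at 4.17 and 3.55 against 1.51 in D150-ROs. No gene of the microglial, endothelial or astrocyte lists averaged 1 FPKM in either passage. The part of these cell types in the members' levels was not tested.

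COL1A1 and GREM1 had the profiles over the 15 libraries most like those of FN1 and TGFBI, respectively. Likeness was the root mean square difference between log2(FPKM + 1) profiles, each centred on its own mean, over 7000 genes. COL1A1, a fibrillar collagen, was nearest to FN1 at 0.565, followed by ACTG2, a smooth muscle actin (0.936), GREM1, a BMP antagonist (1.05), CPA4 (1.28) and IGFBP7 (1.32). For TGFBI the same 5 genes came first, led by GREM1 at 0.570 and COL1A1 at 0.856. FN1 and TGFBI differed from each other by 0.604, the closest pair among the members. All these profiles share the gap between 6 iMGC and 9 other libraries.

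Genes that work with the members were taken from 3 lists written with earlier results of these data known. The elastic fibre and microfibril list holds 20 genes for fibulins, latent TGF-beta binding proteins, microfibril-associated proteins and the lysyl oxidases that cross-link collagen and elastin. From hiPSCs to D70-ROs 5 of 17 tested genes rose (22.5% of all genes did) and 7 fell (21.1%), with LOXL4 (3.17) and LTBP3 (2.08) up and EMILIN2 (-4.41) and LOXL2 (-3.25) down. From D70-ROs to D150-ROs only LTBP2, a latent TGF-beta binding protein, rose (2.28) among 16 tested, where 16.6% of all genes did, and 5 fell (16.7%), led by FBLN1 (-3.45, from 65.5 to 7.29 FPKM) and FBLN2 (-1.60). Between hiPSCs and D150-ROs, 4 of 17 rose (29.8%) and 9 fell (29.0%), with LTBP3 (3.01) and LTBP2 (2.48) up and FBLN1 (-4.78) and LOXL2 (-3.54) down. LOXL4 from hiPSCs to D70-ROs, EMILIN2 and FBLN5 in both comparisons with hiPSCs, and LTBP2 where it rose, passed the filter through their higher group alone. They could be called in that direction only. Between passages EFEMP1, a fibulin, rose (1.25, from 10.5 to 23.7 FPKM) and LOXL4 (-1.50) and LTBP1 (-1.47, from 33.4 to 10.9 FPKM) fell among 17, where 1.94% of all genes rose and 0.977% fell. The median log2 fold changes of the list in these 4 comparisons were -0.45, -0.32, -1.09 and 0.10, beside 0.02, -0.01, -0.02 and 0.00 for all genes. In both passages 15 of 17 tested genes were past the rule upward against D150-ROs (20.0% of all genes in P1 and 20.8% in P5), 12 in P1 and 10 in P5 on the FPKM scale. LOX stood at 212 and 306 FPKM against 1.64 in D150-ROs, and LOXL2 at 342 and 352 against 4.04. Other genes of the list were low in iMGCs, with MFAP5 at 0.850 and 1.00 FPKM and EMILIN1 at 0.190 and 0.170, and FBLN1 (20.5 and 15.3 against 159.6) and MFAP2 (47.1 and 57.7 against 127) were below their hiPSC levels.

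The next list holds 24 other matricellular genes. From hiPSCs to D70-ROs 5 of 9 tested genes rose (22.5% of all genes did) and 3 fell (21.1%), with SMOC1 (2.98) and SPOCK1 (2.96) up and CTGF (-4.47) and CYR61 (-2.90), a pair of integrin ligands of the CCN family, down. From D70-ROs to D150-ROs 5 of 13 rose (16.6%), led by NOV (4.23) and CTGF (4.01), and 3 fell (16.7%), with SPARCL1 (-1.72), a relative of SPARC, and TNXB (-1.70) falling most. Between hiPSCs and D150-ROs, 7 of 13 rose (29.8%) and 2 fell (29.0%), with NOV (4.88) and TNR, a neural tenascin, up and SMOC2 (-1.73) and CYR61 (-1.46) down. TNR went from 0.00333 to 2.48 FPKM. TNR and SPOCK3, and NOV where it rose, passed the filter through the D150-RO libraries alone, so only a rise could be called. The same held for SPARCL1 from hiPSCs to D150-ROs. The counts and list medians of these comparisons include such genes. Between passages 0 of 4 tested genes passed the call in edgeR, DESeq2 or limma. In each, 3 of 4 had an adjusted p under 0.05 but changed by less than 2-fold. The list medians in these 4 comparisons were 1.12, 0.82, 2.59 and -0.21 on the log2 scale. Against D150-ROs, 4 genes were past the rule upward (20.0%) and 7 downward (24.1%) among 12 in P1, and 3 (20.8%) and 8 (23.9%) in P5. On the FPKM scale the counts were 3 and 7 in each passage. CTGF stood at 456 and 433 FPKM and CYR61 at 277 and 321 in P1 and P5 iMGCs, against 20.1 and 10.6 in D150-ROs. TNR, at 2.48 ± 0.349 FPKM in D150-ROs, was listed at 0 in all 6 iMGC libraries, where its relative TNC was high.

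The 18 receptor genes cover integrin subunits, CD36, CD44, CD47 and the syndecans. From hiPSCs to D70-ROs 2 of 13 tested rose (22.5% of all genes did), ITGB8 (4.08) and CD47 (2.45), a thrombospondin receptor, and 6 fell (21.1%), led by ITGB5 (-3.51) and ITGA3 (-2.02). From D70-ROs to D150-ROs 4 of 14 rose (16.6%) and 2 fell (16.7%). CD44, a receptor for osteopontin and hyaluronan and a Müller glial surface protein, rose from 2.07 to 82.1 FPKM (5.45) and ITGA4 rose by 3.28, while SDC1 (-2.10) and SDC3 (-1.22) fell. Between hiPSCs and D150-ROs, 5 of 14 rose (29.8%) and 3 fell (29.0%), with ITGB8 (5.81) and CD44 (4.31) up and SDC1 (-3.87) and ITGB5 (-3.05) down. ITGB8 in both comparisons with hiPSCs, and ITGA4 from D70-ROs and from hiPSCs to D150-ROs, passed the filter through their higher group alone. Between passages 2 of 15 rose (1.94%), ITGB6 (1.47, from 0.397 to 1.07 FPKM) and ITGB3 (1.26, from 20.6 to 47.5 FPKM), the latter a subunit that binds several of the members with ITGAV. ITGB6 passed the filter through the P5 libraries alone, so a rise was the only call open to it. Against D150-ROs, 10 of 15 were past the rule upward (20.0%) and 2 downward (24.1%) in P1, and 13 of 16 (20.8%) and 1 (23.9%) in P5. On the FPKM scale the counts were 10 and 2 in each passage. ITGA9 (0.02 and 0.01 FPKM in P1 and P5 against 2.03) and ITGB8 (6.66 and 10.4 against 28.2) were lower than in D150-ROs. The list medians in the 4 tested comparisons were -0.76, 0.49, -0.04 and 0.32 on the log2 scale. The fibronectin receptor subunits ITGA5 and ITGB1 stood at 126 and 1778 FPKM in P1 iMGCs, against 7.07 and 76.9 in D150-ROs, values chosen for display after they were seen. CD44 was 68.2 and 82.4 FPKM in P1 and P5 iMGCs, near the 82.1 of D150-ROs.

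**Figure D5:**
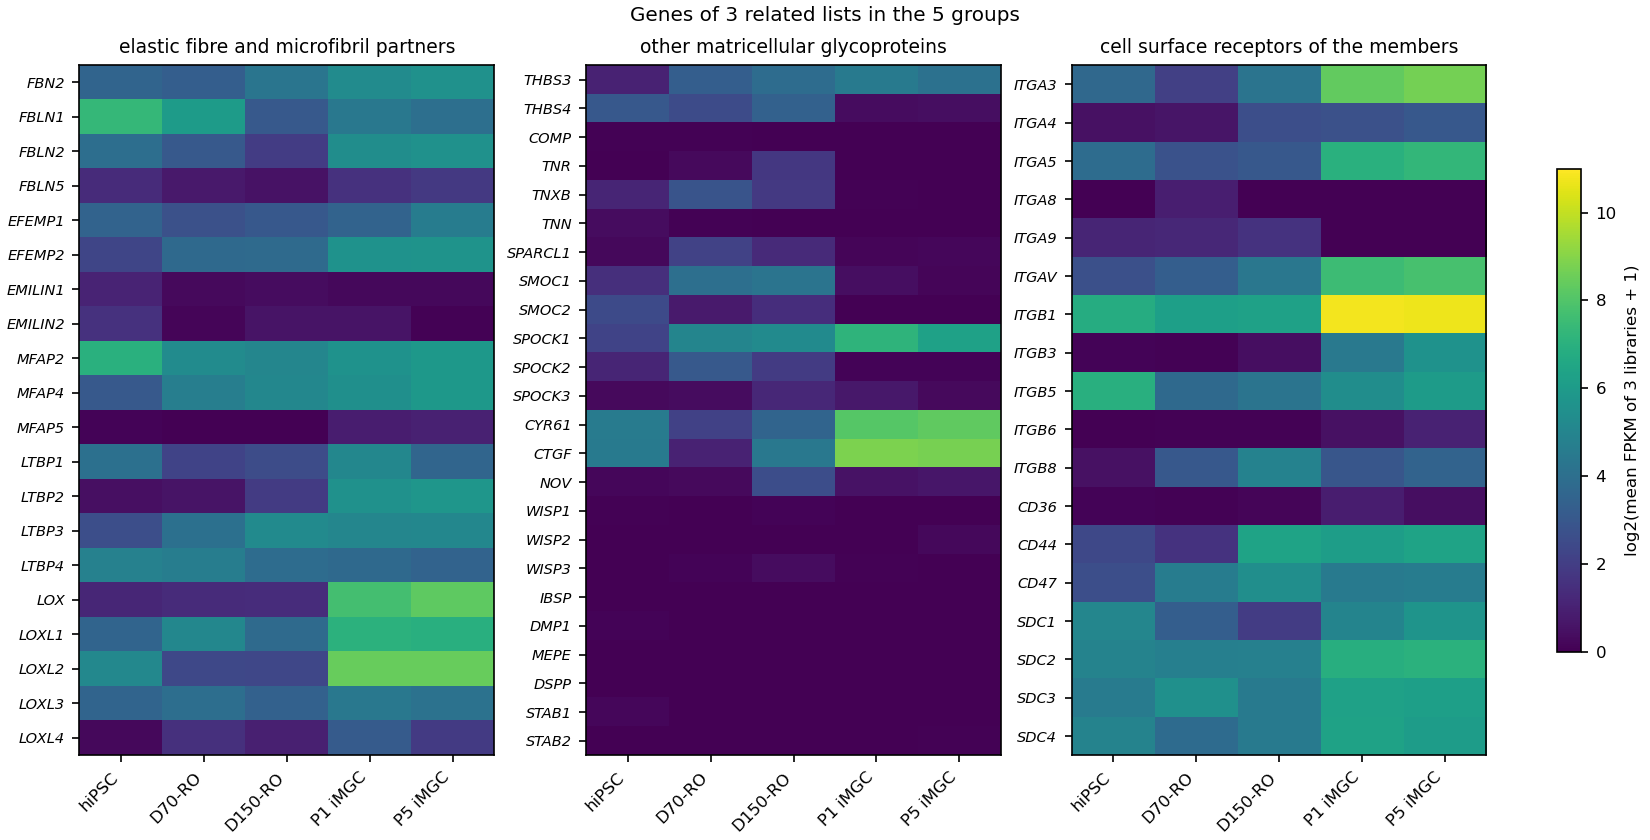
Mean level of 3 libraries as log2(FPKM + 1), shown by colour, for the genes of 3 lists (rows) in the 5 groups (columns). LOX, LOXL2, CTGF, CYR61 and ITGB1 are brightest in the iMGC columns, TNR and SMOC1 are seen in D150-ROs and at or near 0 in iMGCs.

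Counts of 4 members could hold reads of neighbours, because the sources used here do not say whether counting used strand. THBS1 shares 448 exon bases with FSIP1 and 411 with AC037198.2 on the other strand, SPARC 381 with CLMAT3, ELN 165 with ELN-AS1 and TNC 129 with DEC1.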

How the data were processed

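The deposited tables hold RNA-seq of 5 groups of 3 libraries each. The authors used HISAT2 for mapping of paired-end reads, StringTie for assembly and RSEM for quantification, and versions, build and strand setting are not given in the sources used here. The deposited values are expected counts, not normalized and estimated per gene, and FPKM, in which the authors took account of transcript length and of mapped reads. Between 8.21% and 10.1% of the expected counts were not whole, and they were rounded for the tests. The tables give Ensembl identifiers, and all 19684 are in GENCODE 29 (Ensembl 94, GRCh38), from which symbols were taken. Another table holds 6 value columns of iMGCs without a passage in their names, which were not used.

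The members and lists were chosen with earlier results of these data known. Each pair of groups was fitted on its own, with no covariate, in edgeR 4.0.16 in R 4.3.3 (TMM factors, quasi-likelihood test, two-sided), on genes that reached an FPKM of 1 in 3 or more of the 6 libraries. P-values were adjusted by Benjamini-Hochberg over all genes tested, and calls needed an adjusted p under 0.05 and a 2-fold change. Members were named in full. From each list, the called genes with the 2 largest rises and the 2 largest falls were named in each tested comparison, and markers where a result turned on them; for the pattern, the 5 genes most like FN1 and TGFBI with a mean FPKM of at least 10. Genes under the filter are given as summed counts with 95% counting intervals. P1 and P5 libraries come from another table than the ROs, and the comparisons with D150-ROs share the D150-RO libraries.

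Alternatives were no filter, DESeq2 1.42.0, upper-quartile factors, all libraries in 1 fit, limma 3.58.1 on log2(FPKM + 1) and log2(FPKM + 0.1), a test against 2-fold, the replicate block, removal of a length trend, and each library left out. Tested on simulated data with 200 genes changed 4-fold, edgeR recovered 100.0% of them for P5 against P1 iMGCs (11366 genes) and 99.0% for D150-ROs against D70-ROs (12855 genes). The simulation changed as many genes up as down and held no length trend, so it cannot speak to errors of scale or length. Equally numbered libraries had deviations from their group means that correlated between -0.0795 and 0.350, so the numbers were not taken as pairs.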

Additional observations from a re-analysis of the deposited data

How the results depend on the processing

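The numbers of members called in the 4 tested comparisons stayed within 1.5 times the reported count under each alternative run. With the replicate block 8, 7, 6 and 3 members were called, the same numbers as without it, and equal replicate numbers were not taken as pairs. With single libraries left out the counts were 8 to 8 for D70-ROs against hiPSCs, 6 to 8 for D150-ROs against D70-ROs, 6 to 6 for D150-ROs against hiPSCs and 3 to 3 for P5 against P1 iMGCs.

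Direction changed for 4 genes. SPARC in D150-ROs against D70-ROs was at 0.0118 and 0.0122 with limma at both pseudocounts, and between -0.27 and 0.20 with single libraries left out, the latter without D70-RO replicate 2. THBS1 in D150-ROs against hiPSCs was at 0.0434 and 0.0512 with limma, and FBN1 there was at -0.0317 with the length trend removed. SPP1 in P5 iMGCs against D150-ROs, near 0, was at -0.0564 with upper-quartile factors, -0.0903 with the length trend removed and -0.655 and -0.657 with limma. Of the other members there, POSTN moved most with limma, with 3.17 and 5.32 in P1 at pseudocounts of 1 and 0.1. THBS2 in D150-ROs against D70-ROs was called with limma at pseudocount 0.1 (1.21), without D70-RO replicate 3 (1.01) and without D150-RO replicate 2 (1.10), and FN1 there was not called in the test against 2-fold. For the lists, no filter gave 13 matricellular genes called from hiPSCs to D70-ROs (8 with the filter) and 3 between passages (0 with it), since more genes were tested. Receptors called between passages numbered 1 with limma at pseudocount 1 and 1 in the test against 2-fold, against 2. The members' counts were also set against each library's total without its 10 most counted genes. They came to 0.0874% of it in hiPSCs, 0.130% in D150-ROs, 8.80% in P1 and 9.91% in P5 iMGCs. All members, FN1 included, stayed in the counts divided, even where they were among the genes taken out of the total. These values are thus higher by construction and are not shares of the smaller total. Except for the length trend, list filter and totals, the cause was not tested. Counts limit POSTN in hiPSCs and ROs and ELN in iMGCs.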
